A study of Homo sapiens with 8 samples.

Results

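PAX3, PAX7, SIX2, SIX4, EYA1, EYA3, EYA4 and PITX3 are 8 genes of 4 families that include regulators of the skeletal muscle programme. They were taken by symbol, through their Ensembl identifiers, from 58302 genes listed in each file. All 8 were detected in every library and all 8 passed the filter on low counts. The cells were RD, a human rhabdomyosarcoma line, which is a tumour line of the skeletal muscle lineage. One group of 4 libraries (shPROX1) carried a short hairpin RNA against the homeobox gene PROX1, and the other group of 4 (control) carried a scrambled hairpin, so that both groups expressed a hairpin RNA. The series design describes the 4 libraries of each group as biological replicates. It does not say whether they came from separate transductions or clones, and p-values measure the spread between these libraries.

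PAX3 and PAX7 encode paired-domain transcription factors that mark the progenitors of skeletal muscle, and PAX7 also marks the satellite cells of adult muscle. The sine oculis proteins, which include those encoded by SIX2 and SIX4, are homeodomain factors that bind MEF3 elements in muscle promoters such as that of MYOG, and EYA proteins are their coactivators and carry a phosphatase domain. PITX proteins are bicoid-class homeodomain factors. PITX3 is expressed in developing mouse muscle and is also known for dopaminergic neurons and the lens. In alveolar rhabdomyosarcoma PAX3 or PAX7 is often fused to FOXO1, whereas RD is an embryonal line without that fusion.

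PITX3 and PAX7 were lower in shPROX1 libraries, and the other 6 genes did not pass the test in either direction. PITX3 stood at 54.0% of control (95% interval 47.2% to 61.9%) and PAX7 at 75.3% of control (66.9% to 84.6%). Of the 8 genes, 0 rose and 2 fell, where 17.3% of the 12392 tested genes rose, 17.9% fell and 35.2% differed in either direction. The median log2 change of the 8 was -0.03, against -0.01 over all tested genes. Changes are shPROX1 minus control, with the standard error of the edgeR quasi-likelihood fit, and a gene is said to have risen or fallen where its Benjamini-Hochberg adjusted p over all tested genes was under 0.05. The 6 genes that did not pass include SIX2 and SIX4, PAX3 and all 3 EYA genes of the set.

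Promoter sequences are shown for both genes that fell and for PAX3, the closest relative of PAX7 in the set, which did not pass. They come from the RefSeq table of build GRCh38.p14, which held 7 of the 8 genes, and span 250 bases before to 50 after the annotated start, 5′ to 3′ on the gene's strand. Starts are those of RefSeq, which can differ from the GENCODE gene coordinates given below; for PAX7 the whole window lies before the GENCODE start. Capitals mark matches on either strand to 5 motifs: CAGCTG (the E-box form preferred by MYOD and MYOG), CANNTG (any E-box, which includes CAGCTG), TCAGGTTTC (MEF3), TAATCC (PITX) and TAATTA (paired-type homeodomains). The PAX7 sequence lies at chr1:18630596-18630895 on the plus strand, the PITX3 sequence at chr10:102241463-102241762 on the minus strand and the PAX3 sequence at chr2:222298949-222299248 on the minus strand.
PAX7: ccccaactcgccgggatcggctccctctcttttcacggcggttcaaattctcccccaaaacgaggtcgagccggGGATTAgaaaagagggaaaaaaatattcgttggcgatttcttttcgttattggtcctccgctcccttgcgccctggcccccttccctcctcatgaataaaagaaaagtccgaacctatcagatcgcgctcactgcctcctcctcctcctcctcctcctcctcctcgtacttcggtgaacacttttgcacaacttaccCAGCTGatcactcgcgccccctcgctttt
PITX3: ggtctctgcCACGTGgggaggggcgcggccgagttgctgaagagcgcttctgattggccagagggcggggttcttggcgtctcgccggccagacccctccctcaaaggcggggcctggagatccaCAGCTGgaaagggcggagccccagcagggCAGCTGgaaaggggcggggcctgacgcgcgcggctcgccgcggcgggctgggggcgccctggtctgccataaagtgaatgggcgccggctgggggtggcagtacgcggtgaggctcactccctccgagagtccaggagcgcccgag
PAX3: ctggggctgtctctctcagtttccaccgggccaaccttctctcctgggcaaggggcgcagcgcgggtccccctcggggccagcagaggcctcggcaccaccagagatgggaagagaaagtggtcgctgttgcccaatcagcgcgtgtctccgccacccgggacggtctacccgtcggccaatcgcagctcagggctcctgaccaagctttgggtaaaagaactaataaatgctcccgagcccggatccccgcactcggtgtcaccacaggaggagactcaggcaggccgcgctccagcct

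The PITX3 promoter held CAGCTG at 125 and 96 bases upstream of the start and the E-box CACGTG at 241 bases upstream. The PAX7 promoter held CAGCTG at 21 bases downstream of the RefSeq start and a TAATCC match, read on the other strand as GGATTA, at 176 bases upstream. The PAX3 promoter held 0 matches, as did those of SIX2 and SIX4, while EYA3 had 1 E-box and EYA4 had 2, with another core. The MYOD and MYOG form was in 2 of the 7 promoters, those of PITX3 and PAX7. Any E-box was in 4 of 7, which include EYA3 and EYA4, genes that did not pass. The promoters were read with the calls known, and whether a motif goes with a fall was not tested. Among all 35116 promoters of the table, 17.9% held CAGCTG, 68.7% any E-box, 6.36% TAATCC, 4.84% TAATTA and 0.362% TCAGGTTTC. These matches describe letters in a window and are no evidence of binding.

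PROX1, the silenced gene, was lower in every shPROX1 library. It measured 7.68, 10.3, 9.07 and 8.14 CPM (counts scaled to a library total of 1e6) in shPROX1 replicates 1 to 4, against 20.02, 16.3, 16.7 and 21.6 CPM in control replicates 1 to 4. The groups did not overlap (log2 change -1.07 ± 0.15, n = 4 each), and an exact permutation test, two-sided, gave p = 0.0286, which is the lowest p possible with 70 arrangements. The level was 47.6% of control, a smaller reduction than the series design states. Libraries held 3747090 to 4301987 counts in shPROX1 and 4055205 to 4865161 in control. A count of 0 allows up to 3 counts, or 0.617 to 0.801 CPM by library, for counting error only. Muscle markers matched the label: DES, the muscle intermediate filament gene, averaged 473 ± 21.0 CPM in shPROX1 and 545 ± 16.4 CPM in control (SD, n = 4 each), and MYOD1, the myogenic master regulator, 72.2 ± 4.49 CPM in shPROX1 and 71.2 ± 7.72 CPM in control. Of 8 muscle line markers, 7 were tested, of which 0 rose and 5 fell, where 17.3% of all tested genes rose and 17.9% fell. The 5 were MYOG (log2 change -1.32 ± 0.06), MYH3 (embryonic myosin heavy chain, -0.94 ± 0.06), CDH15 (-0.45 ± 0.07), TNNT1 (-0.30 ± 0.05) and DES (-0.18 ± 0.04). MYOD1 and CHRNA1 (0.01 ± 0.04) did not pass. The part of this muscle marker shift in the changes of PITX3 and PAX7 was not tested. SOX10 and S100B of the neural crest and glial list, CDH5 of the endothelial list and CD3E of the leukocyte list had 0 counts in all libraries. The summed neuron list spanned 9.61 to 13.7 CPM in shPROX1 and 12.6 to 15.3 CPM in control, with 0 of 3 tested genes called. The 6 neural crest and glial genes summed to 1.86 to 2.69 CPM in shPROX1 and 2.22 to 3.87 CPM in control, and the 5 leukocyte genes to 1.40 to 2.13 CPM in shPROX1 and 0.617 to 1.45 CPM in control. In the endothelial list (40.9 to 45.3 CPM in shPROX1, 38.7 to 52.5 CPM in control) TEK carried nearly all counts and was not called. In the epithelial list (256 to 281 CPM in shPROX1, 176 to 207 CPM in control) the keratin KRT18 rose (log2 change 0.47 ± 0.06), while EPCAM, CDH1 and KRT19 had at most 1 count in any library.

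PITX3 changed most among the 8 genes. Its levels were 25.1, 22.02, 28.3 and 32.3 CPM in shPROX1 replicates 1 to 4, against 51.3, 50.3, 51.3 and 49.9 CPM in control replicates 1 to 4. All 4 shPROX1 libraries lay below all 4 control libraries; of all tested genes, 32.3% had groups that did not overlap. The mean was 26.9 ± 4.40 CPM in shPROX1 and 50.7 ± 0.701 CPM in control (SD, n = 4 each), a log2 change of -0.89 ± 0.09 (edgeR adjusted p = 1.06e-07). With 204 to 243 counts per control library, the control SD is smaller than counting error alone and understates the uncertainty of that level. Of all tested genes, 4.14% had a larger change in either direction. PITX3 (ENSG00000107859) lies on the minus strand of chromosome 10, 102230186 to 102241474 (GRCh38), and none of its exon bases is shared with another annotated gene. In bulk RNA, fewer cells that express a gene and less RNA per cell cannot be told apart, which holds for each level given here.

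PAX7 was lower in all 4 shPROX1 libraries by a smaller margin. The levels were 30.7, 28.1, 32.3 and 33.2 CPM in shPROX1 replicates 1 to 4, against 41.5, 41.2, 42.1 and 43.2 CPM in control replicates 1 to 4. The highest shPROX1 library was below the lowest control library, so the groups did not overlap. Means were 31.1 ± 2.23 CPM in shPROX1 and 42.0 ± 0.881 CPM in control (SD, n = 4 each), a log2 change of -0.41 ± 0.08 (edgeR adjusted p = 0.00041). Here too the control SD is smaller than counting error alone, at 167 to 210 counts per control library. A larger change was found for 20.1% of tested genes. Within the shPROX1 group, replicate 2 was the lowest and replicate 4 the highest for both PITX3 and PAX7, whereas PROX1 itself was highest in replicate 2 and lowest in replicate 1. Whether these orders are related was not tested. PAX7 (ENSG00000009709) is on the plus strand of chromosome 1, 18631006 to 18748866.

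PAX3, the paralog of PAX7, had fewer counts than PAX7 in every library and showed no call. Its levels were 16.99, 18.1, 23.5 and 19.8 CPM in shPROX1 replicates 1 to 4, against 15.1, 19.2, 18.4 and 19.3 CPM in control replicates 1 to 4. The groups overlapped, and shPROX1 replicate 3 was the highest library of all. The log2 change was 0.14 ± 0.13 (edgeR adjusted p = 0.432), and its interval of 91.8% to 132% of control does not reach the 75.3% found for PAX7; the difference between both changes was not tested. PAX3 had 64 to 94 counts per library. PAX3 (ENSG00000135903) is on the minus strand of chromosome 2, 222199888 to 222298996.

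The share of PAX7 in the counts of both paralogs was lower in every shPROX1 library than in any control library. PAX7 supplied 64.4%, 60.8%, 57.9% and 62.7% of the summed PAX3 and PAX7 counts in shPROX1 replicates 1 to 4, against 73.3%, 68.2%, 69.6% and 69.1% in control replicates 1 to 4. Per exon length, PAX7 exceeded PAX3 2.02 ± 0.233 times in shPROX1 and 2.96 ± 0.341 times in control (SD, n = 4 each). The ranges, 1.73 to 2.27 in shPROX1 and 2.69 to 3.46 in control, did not overlap. This ratio was formed with both genes' values known and is given without a test. Its size depends on the length used. Per longest transcript, PAX3 stood above PAX7 in shPROX1 and below it in control. No 50-base window of any annotated PAX3 or PAX7 transcript occurred in a transcript of another gene, so that reads of that length could be told apart between them.

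**Figure D1:**
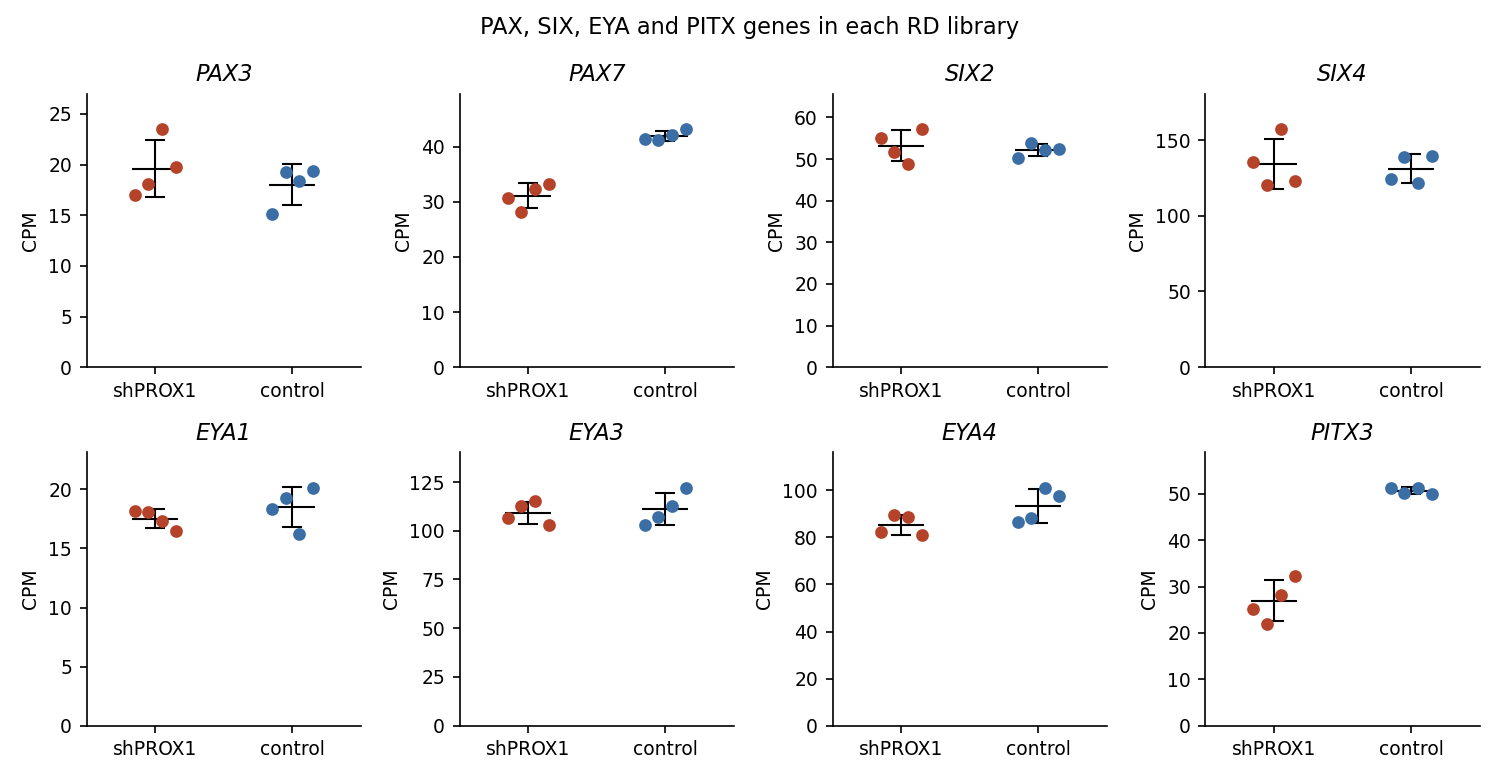
Each panel plots the level of 1 gene in CPM on a linear axis from 0, with shPROX1 libraries left of control libraries; points are libraries, bars the mean and SD of 4. PITX3 (mean 26.9 CPM in shPROX1, 50.7 CPM in control) and PAX7 (31.1 CPM in shPROX1, 42.0 CPM in control) separate without overlap, and the other 6 genes overlap between the groups.

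SIX2 and SIX4, the homeodomain partners of EYA proteins, stayed within the spread of the libraries. SIX2 measured 55.2, 51.6, 48.8 and 57.2 CPM in shPROX1 replicates 1 to 4, against 50.2, 53.8, 52.2 and 52.4 CPM in control replicates 1 to 4. The 4 control libraries fell inside the range of the shPROX1 libraries (log2 change 0.06 ± 0.07, edgeR adjusted p = 0.588, interval 93.8% to 115% of control). SIX4, with the most counts of the 8 genes, had 135, 121, 157 and 123 CPM in shPROX1 replicates 1 to 4, against 125, 139, 122 and 139 CPM in control replicates 1 to 4. Here shPROX1 replicate 3 was the highest library and shPROX1 replicate 2 the lowest, so that the controls lay between them. The log2 change was 0.05 ± 0.07 (edgeR adjusted p = 0.617, interval 93.6% to 115% of control) and -0.02 ± 0.06 without shPROX1 replicate 3. SIX2 (ENSG00000170577) lies on chromosome 2, 45005161 to 45009430, and SIX4 (ENSG00000100625) on chromosome 14, 60709528 to 60724348, both on the minus strand. SIX3, at 59084 bases from SIX2, had 1 count over all libraries.

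The 3 EYA genes, coactivators that sine oculis proteins need at many targets, were each near control level. EYA3 had 107, 113, 115 and 103 CPM in shPROX1 replicates 1 to 4, against 103, 107, 113 and 122 CPM in control replicates 1 to 4. Its log2 change of -0.01 ± 0.06 (edgeR adjusted p = 0.95) had an interval of 91.4% to 108% of control, and 98.1% of tested genes showed a larger change. EYA4 had 82.4, 89.6, 88.6 and 80.9 CPM in shPROX1 replicates 1 to 4, against 86.4, 88.3, 101 and 97.4 CPM in control replicates 1 to 4. EYA4 was thus lowest in shPROX1 replicates 4 and 1 and highest in control replicates 3 and 4, while shPROX1 replicates 2 and 3 lay just above control replicates 1 and 2 (log2 change -0.11 ± 0.06, edgeR adjusted p = 0.202, interval 84.8% to 102% of control). EYA1 had 18.2, 18.1, 17.3 and 16.5 CPM in shPROX1 replicates 1 to 4, against 18.4, 19.2, 16.2 and 20.1 CPM in control replicates 1 to 4. The lowest and the highest EYA1 values were both in control libraries (log2 change -0.06 ± 0.12, edgeR adjusted p = 0.743, interval 81.4% to 114% of control).

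The EYA genes kept the same order per length in both groups. Per exon length, EYA3 made up 59.7% ± 0.368 of the 3 EYA genes in shPROX1 and 58.1% ± 0.793 in control (SD, n = 4 each). EYA4 made up 33.7% ± 0.332 in shPROX1 and 35.2% ± 1.29 in control, and EYA1 6.60% ± 0.305 in shPROX1 and 6.67% ± 0.702 in control. These shares depend on the length used, and the SD covers the spread of libraries only. The ratio of EYA4 to EYA3 spanned 0.557 to 0.574 in shPROX1 and 0.577 to 0.647 in control, ranges that did not overlap and are given without a test. EYA2, the fourth relative, had 4 counts over the shPROX1 and 15 over the control libraries and was below the filter. EYA1 shared 3.68% and EYA4 1.56% of their exon bases with other annotated genes, and up to 2.79% of the 50-base windows of an EYA gene occurred elsewhere. EYA1 (ENSG00000104313) is on chromosome 8, 71197433 to 71592025, and EYA3 (ENSG00000158161) on chromosome 1, 27970344 to 28088696, both on the minus strand. EYA4 (ENSG00000112319) is on the plus strand of chromosome 6, 133240598 to 133532120.

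**Figure D2:**
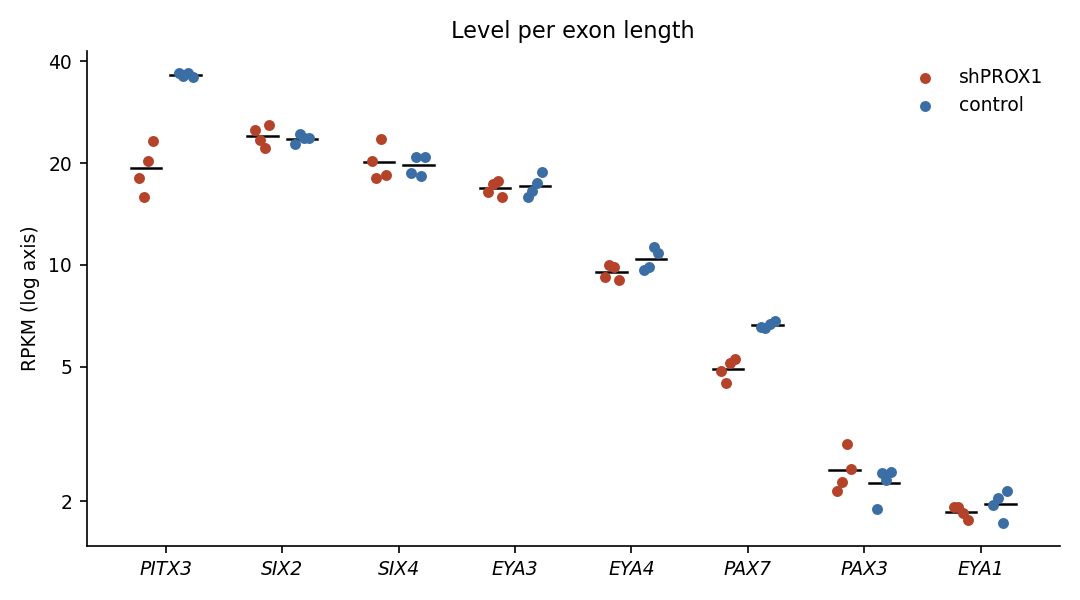
Level of each gene in RPKM on a log axis, in shPROX1 (left of each pair) and control libraries; points are libraries and bars the means of 4, with genes in order of their control mean. PITX3 is the highest gene in control (36.5 RPKM) and lies among SIX2, SIX4 and EYA3 in shPROX1 (19.4 RPKM).

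Levels between genes were compared per length, as RPKM over the union of annotated exons. In shPROX1 the order was SIX2 (24.1 ± 1.68 RPKM), SIX4 (20.1 ± 2.51), PITX3 (19.4 ± 3.16), EYA3 (16.9 ± 0.869), EYA4 (9.52 ± 0.486), PAX7 (4.93 ± 0.353), PAX3 (2.47 ± 0.357) and EYA1 (1.86 ± 0.0825; SD, n = 4 for each RPKM). In control PITX3 led with 36.5 ± 0.504 RPKM, ahead of SIX2 at 23.6 ± 0.672 RPKM, and the order of the rest was the same. Among the first 4 genes in shPROX1, each level overlapped the next across libraries. In control SIX4 overlapped EYA3 and PAX3 overlapped EYA1, and no other neighbours overlapped. The order depended on the length used. With the length of the longest transcript, PAX3 (6.18 RPKM) stood above PAX7 (5.62 RPKM) in shPROX1, and PAX7 (7.58 RPKM) above PAX3 (5.68 RPKM) in control.

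Relatives outside the set moved in both directions. Of 14 further genes of the 4 families, 12 had counts and 6 were tested, of which 1 rose and 3 fell, with a median log2 change of -0.34. Over all tested genes 35.2% were called and the median was -0.01, and the difference was not tested. PITX1, a regulator of hindlimb identity, rose to 18.9 ± 1.13 CPM in shPROX1, against 14.7 ± 0.478 CPM in control (log2 change 0.38 ± 0.12, edgeR adjusted p = 0.013). PAX2, known for kidney development, fell to 5.67 ± 0.429 CPM in shPROX1, against 9.63 ± 1.56 CPM in control (-0.75 ± 0.18). SIX5 fell at the edge of the threshold (-0.56 ± 0.20, edgeR adjusted p = 0.0333), a call that was lost in 8 of 14 alternative settings. They include DESeq2 (adjusted p = 0.105), no filter on low counts, leaving out control replicate 3 or 4 and leaving out any 1 shPROX1 library, with edgeR adjusted p up to 0.146. With DESeq2, PITX1 also missed the threshold (adjusted p = 0.0584), so that 2 of these 6 genes were called in place of 4.

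**Figure D3:**
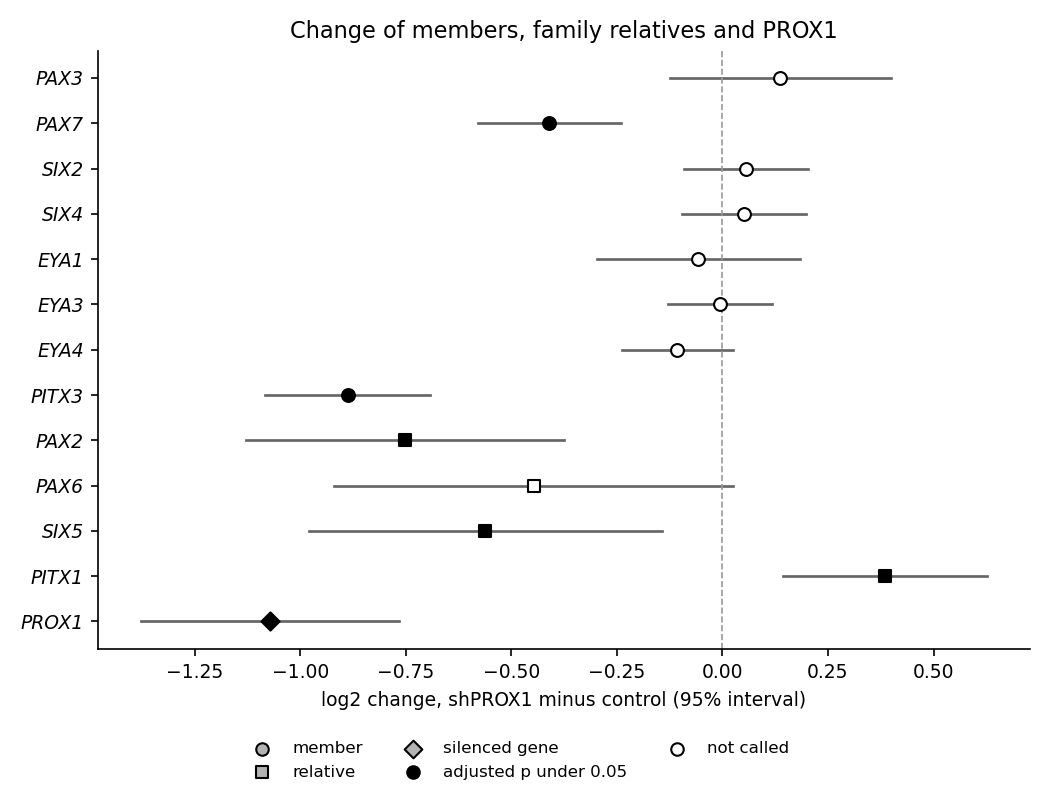
Log2 change from shPROX1 minus control with its 95% interval for the 8 genes, 4 of the tested relatives and PROX1; filled symbols passed the adjusted threshold. The intervals of PITX3 and PAX7 lie wholly below 0, and those of the 6 other set genes include 0.

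Of 8 DACH, Groucho and SOBP genes, 5 were tested, of which 0 rose and 2 fell (median log2 change -0.16), a share of calls near the 35.2% over all tested genes. TLE5, a short Groucho protein without the repeat domain, fell to 56.8 ± 5.28 CPM in shPROX1, against 86.2 ± 7.56 CPM in control (log2 change -0.58 ± 0.08). TLE4, a corepressor, fell slightly (-0.20 ± 0.06), a call lost without control replicate 4 (edgeR adjusted p = 0.0897), and TLE3 (-0.06 ± 0.07) did not pass. DACH2 had 0 counts and DACH1 was below the filter, with 13 counts over the shPROX1 and 32 over the control libraries. Of 10 chromatin partners of PAX3 and PAX7, all tested, 1 rose and 3 fell (median -0.02). These 4 calls of 10 are a share near the 35.2% called over all tested genes. The methyltransferase KMT2C rose (0.31 ± 0.10), and the histone chaperone DAXX (-0.24 ± 0.07), the methyltransferase subunit RBBP5 (-0.23 ± 0.06) and the arginine methyltransferase CARM1 (-0.21 ± 0.07) fell. The groups overlapped for KMT2C and CARM1. KMT2C was not called without shPROX1 replicate 3 (edgeR adjusted p = 0.0685) or control replicate 2 (edgeR adjusted p = 0.052). CARM1 was not called in DESeq2 (adjusted p = 0.0898), with no filter, without control replicate 1 or 4 or without shPROX1 replicate 1, 2 or 3 (edgeR adjusted p up to 0.119), and the adaptor PAXBP1 (-0.04 ± 0.06) did not pass.

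Target genes of these factors split. Of 10 PAX3 and PAX7 targets, 7 were tested, of which 2 rose and 2 fell (median log2 change -0.15). These 4 calls of 7 compare with 35.2% called over all tested genes, and the difference was not tested. FGFR4, a growth factor receptor, fell to 69.9 ± 10.3 CPM in shPROX1, against 158 ± 8.90 CPM in control (-1.15 ± 0.08, edgeR adjusted p = 5.07e-11). MET, the receptor of hepatocyte growth factor, rose to 84.2 ± 4.01 CPM in shPROX1, against 45.7 ± 4.91 CPM in control (0.90 ± 0.07, edgeR adjusted p = 1.73e-09). ID3, an inhibitor of bHLH factors, rose as well (0.68 ± 0.07), and the zinc finger gene PLAGL1 fell (-0.39 ± 0.08). MYOD1 (0.04 ± 0.07) and the ERK inhibitor SPRY1 (-0.15 ± 0.06, edgeR adjusted p = 0.060) did not pass, and SPRY1 was called without control replicate 1 (edgeR adjusted p = 0.0198) or shPROX1 replicate 3 (edgeR adjusted p = 0.0215). MYF5 and ITM2A had 0 counts in all 8 libraries.

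Of 11 targets of the sine oculis and EYA proteins, 7 were tested, of which 1 rose and 3 fell (median log2 change -0.33). Here too 4 of 7 were called, against 35.2% over all tested genes, without a test of the difference. MYOG, whose promoter holds a MEF3 site in mouse, fell to 47.8 ± 2.69 CPM in shPROX1, against 121 ± 5.27 CPM in control (-1.32 ± 0.06). CCND1, a D-type cyclin, rose to 489 ± 9.34 CPM in shPROX1, against 253 ± 9.54 CPM in control (0.97 ± 0.05). MYC (-0.38 ± 0.05) and the ion transporter SLC12A2 (-0.33 ± 0.07) fell, and the membrane linker EZR (0.08 ± 0.05) did not pass. Of the 6 PITX3 targets, which are dopaminergic and lens genes, 0 passed the filter. TH, SLC18A2 and FOXE3 had 0 counts in every library, and SLC6A3 had 1 count in each control library and 0 in each shPROX1 library.

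Satellite cell markers other than PAX7 also moved both ways. Of 15 markers, 13 were tested, of which 4 rose and 6 fell (median log2 change -0.15). These 10 calls of 13 compare with 35.2% called over all tested genes, and the difference was not tested. The heparan sulphate proteoglycan SDC4 rose to 139 ± 4.55 CPM in shPROX1, against 39.4 ± 3.27 CPM in control (1.84 ± 0.06). CD34, a surface sialomucin, rose to 4.06 ± 0.596 CPM in shPROX1, against 1.11 ± 0.434 CPM in control (1.91 ± 0.32). HEY1, a Notch target, fell to 233 ± 7.21 CPM in shPROX1, against 369 ± 11.3 CPM in control (-0.64 ± 0.05). FGFR4, MET and SPRY1 stand in this list and in that of the PAX targets, and CALCR had 0 counts.

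**Figure D4:**
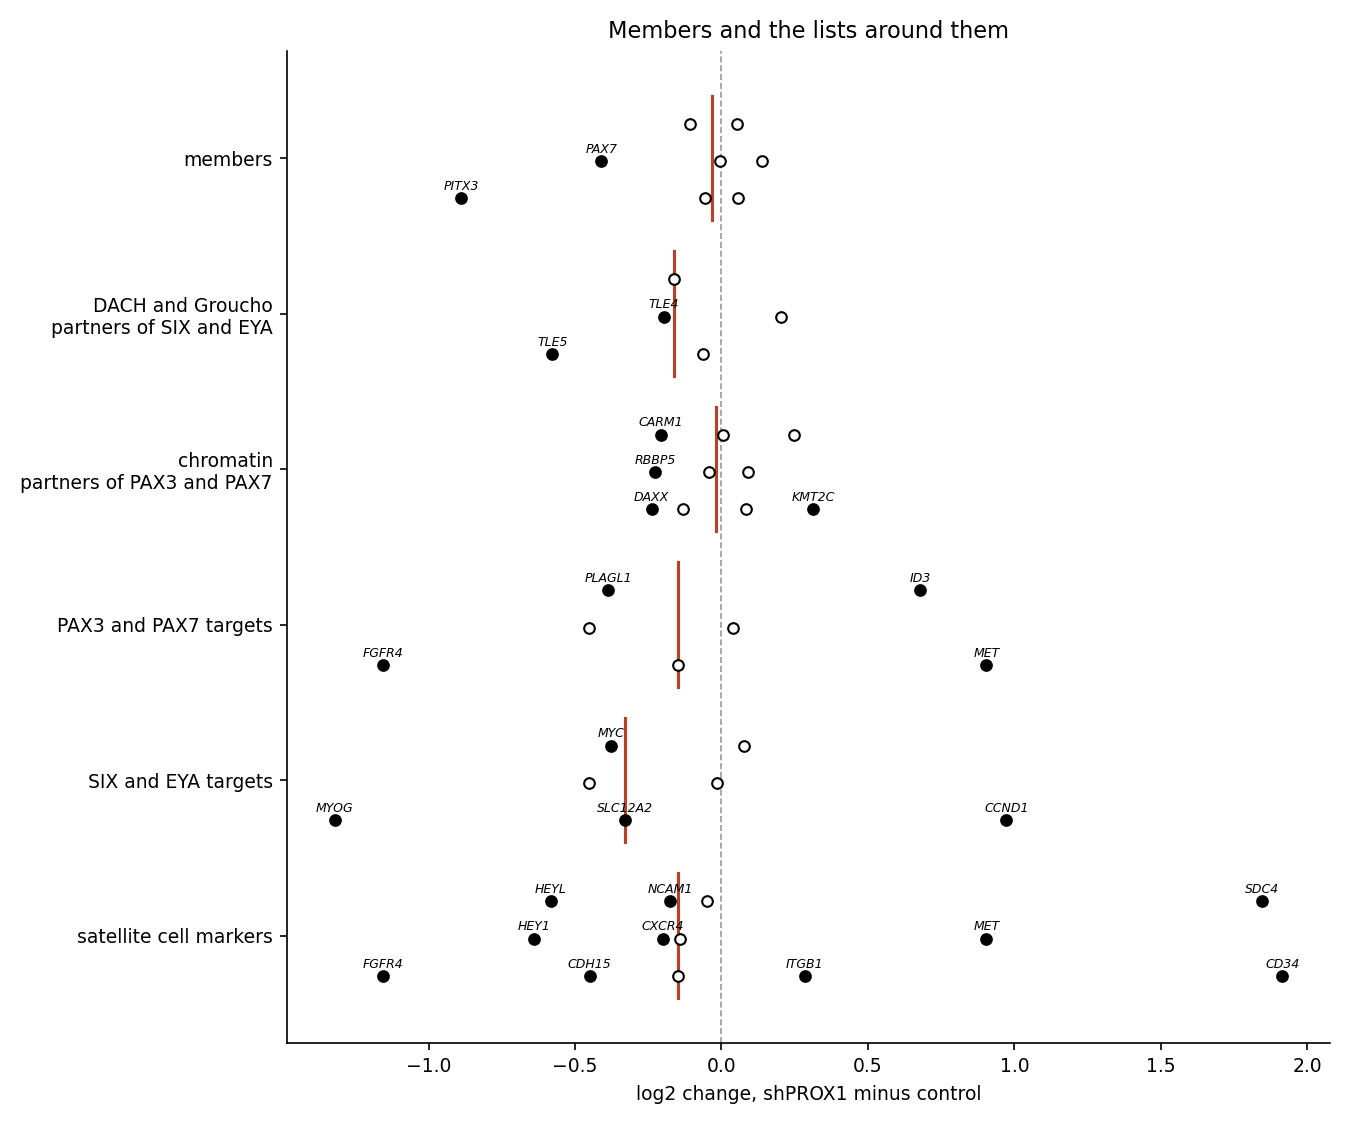
Log2 change of each tested gene, shPROX1 minus control, for the 8 genes and 5 lists around them; filled points passed the adjusted threshold and are named, and the red bar is each list's median. The members' median (-0.03) lies near 0, and the target and satellite lists spread to both sides.

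Genes with the profile most like the 2 that fell were found by the root mean square difference of centred log2 CPM over the 8 libraries, with 10529 protein-coding genes at 5 CPM or above compared. For PAX7 these were HINT3, a nucleotide hydrolase (difference 0.042 log2 units), and HPS5, which acts in the formation of lysosome-related organelles (0.042), against a median of 0.254 over all genes compared. HINT3 averaged 25.9 ± 1.13 CPM in shPROX1 and 34.0 ± 0.266 CPM in control. For PITX3 they were IMPA2, an inositol monophosphatase (0.081), and GPC2, a glypican (0.094), against a median of 0.483. IMPA2 averaged 13.3 ± 2.74 CPM in shPROX1 and 23.4 ± 1.02 CPM in control. These genes were picked as the closest of all genes compared, so differences below the median follow from the choice and are no result.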

How the data were processed

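RNA was measured in 8 libraries of RD cells, 4 shPROX1 and 4 control, prepared with a directional kit (labels' protocols). Titles gave group and replicate. Each deposited file lists the raw count of every gene in 1 library, as the authors counted them. Per the submitters' processing notes, FastQC, HISAT2, HTSeq, DESeq2 and build GRCh38 (hg38) were used; versions, annotation release and strand setting of the counting are not given in the sources used here.

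Symbols, coordinates (1-based) and lengths came from GENCODE 29 (58039 of 58302 identifiers matched). The quasi-likelihood F test of edgeR 4.0.16 (R 4.3.3) compared the groups in 12392 genes left by filterByExpr, with TMM factors, group as only term and a threshold of 0.05. CPM uses the library total. Each library was counted as 1 sample, since the series design describes biological replicates. Chi-square statistics between library pairs of the same group were 1.19 to 2.16 times their degrees of freedom in shPROX1 and 2.39 to 6.34 times in control. The lowest, 1.19, is little above counting error alone. These statistics cannot show that libraries are independent, and whether libraries share a culture was not tested. Members and lists were chosen with earlier results of these data known. Genes named from a list were the 4 strongest calls at 1 CPM or above plus its top uncalled gene by level. MYOD1, DES, HEY1, SIX3, EYA2, DACH1 and the neighbouring genes were named after their values were seen. Some genes of the lists are not reported here. The test was also run on simulated counts with the same spread for every gene and changes in few genes. That setting is simpler than these data, so the run gives no error rate for the calls made here. Alternatives were RLE factors, no filter, 1 CPM in 4 libraries, DESeq2 1.42.0, limma 3.58.1 voom, a replicate block, leaving out single libraries, and longest-transcript lengths.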

Additional observations from a re-analysis of the deposited data

How the results depend on the processing

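PITX3 and PAX7 were called lower under all 14 alternative settings, and the other 6 genes under none of them. The PITX3 log2 change spanned -0.99 to -0.80 (adjusted p at most 2.75e-06) and that of PAX7 -0.45 to -0.36 (adjusted p at most 0.00305). Genes called over the whole table numbered 3483 to 4426. With the replicate block, 4187 genes were called, PAX7 had a log2 change of -0.41 ± 0.09 and no call of the 8 genes changed. Same-numbered libraries did not deviate together (correlation -0.05 to 0.05). These values show no sign of pairing by number but, with 4 libraries per group, cannot exclude it. Signs turned only for values near 0: EYA3 was 0.0028 with no filter, 0.0023 with 1 CPM in 4 libraries and -0.0404 to 0.0408 with a library left out, against -0.01; SIX4 was -0.0247 to 0.0985, PAXBP1 -0.0956 to 0.00011, CHRNA1 -0.0128 to 0.0357 and MYOD1 -0.0317 to 0.0808 with a library left out. Called relatives numbered 2 in place of 4 with DESeq2 and 3 to 4 with a library left out. Called cofactors numbered 1 to 2 and called chromatin partners 2 to 4 with a library left out. Longest-transcript lengths moved 9 of 16 RPKM values by more than 1 SD. PAX3 and EYA1, with 64 to 98 counts per library, had intervals spanning 91.8% to 132% and 81.4% to 114% of control.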

Other observations

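Tested genes within 100000 bases of the 8 genes were looked up after the members' values were known. Of 10 such genes, 1 rose, 4 fell and the rest did not pass, where 35.2% of all tested genes were called. Not all of the 10 are described here. ELOVL3, a fatty acid elongase gene on the opposite strand that ends 597 bases from PITX3, fell to 4.39 ± 0.683 CPM in shPROX1, against 7.13 ± 1.12 CPM in control (SD, n = 4 each; log2 change -0.68 ± 0.21, edgeR adjusted p = 0.0146). That call was lost in DESeq2 (adjusted p = 0.0602), without control replicate 1 (edgeR adjusted p = 0.0556) and without shPROX1 replicate 2 (edgeR adjusted p = 0.0511). GBF1, which starts 4058 bases on the other side of PITX3, had a log2 change of -0.00496 ± 0.06 and did not pass. NOLC1, a nucleolar protein gene at 66315 bases from PITX3, rose (0.28 ± 0.05, edgeR adjusted p = 4.38e-05). Beside SIX4, MNAT1 at 10394 bases fell (-0.25 ± 0.08, edgeR adjusted p = 0.0152), a call lost in DESeq2 (adjusted p = 0.0598) and without control replicate 2 or shPROX1 replicate 3 or 4 (edgeR adjusted p up to 0.0561). The lincRNA AC010980.2 at 18246 bases from PAX3 fell at the edge of the threshold (-0.76 ± 0.28, edgeR adjusted p = 0.0382), a call lost in 8 of 14 alternative settings, DESeq2 among them (adjusted p = 0.112), with 2.78 ± 1.03 CPM in shPROX1 and 4.69 ± 1.196 CPM in control.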
